A study of Rattus norvegicus with 8 samples.

Results

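The imprinted growth genes H19, Igf2, Dlk1, Peg3, Mest, Cdkn1c, Grb10, Plagl1 and Ndn were followed through rat myelinating cultures exposed to fibroblast growth factor 9 (FGF9). Members were the array features whose annotation gave exactly 1 of these symbols, and the feature with the highest mean stood for a gene that had several. Of the 9 listed genes, 8 were measured, among 14506 genes in all. No feature carried Peg3, which is not analysed here. H19 entered the list because of its values at 10 days, so those values are given below as a description without a test.

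The data were 8 expression arrays of total RNA from Sprague-Dawley rat cultures made from dissociated embryonic spinal cord, in which neurons, astrocytes and myelinating oligodendrocytes grow together. Cultures were untreated (control) or received human FGF9 at 100 ng/ml, and were collected at 24 hours or at 10 days, giving 4 groups of 2 arrays. The labels number the arrays 1 and 2 within each group. They do not say whether replicates came from separate cultures, so a p-value reflects only how far these arrays scatter, which may be technical. The source label of these samples names neurosphere-derived astrocytes, while the title and cell type name a myelinating culture. On each of the 8 arrays all 14 measured neuron markers were above the array's median. Of the 11 measured markers of the oligodendrocyte lineage, at most 1 was below it.

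Array names carry a prefix shared by the same-numbered control and FGF9 arrays of a time point. Pair 1 of 24 hours carries CL1, CL2 is common to pair 2 of 24 hours and pair 1 of 10 days, and pair 2 of 10 days carries AA1. What these letters stand for is not stated. Values are on a log2 scale, on which a difference of 1 is a 2-fold change, and array medians lay between 6.62 and 6.73. The AA1 arrays stood apart: they correlated at 0.968 with each other and at 0.897 to 0.939 with the other 6, which correlated at 0.962 to 0.989 among themselves. Results are therefore given for each pair as well as for both.

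Imprinted genes are transcribed from only the maternal or only the paternal allele, and many of them set the growth of the embryo and placenta. Paternally expressed members such as Igf2, Dlk1 and Peg3 mostly promote growth or keep progenitors immature, and maternally expressed members such as H19 and Cdkn1c mostly restrain it. H19 and Igf2 are neighbours that share enhancers and are held on opposite parental alleles by an insulator between them. In the nervous system, several members stay expressed after birth in neurons, glia or the coverings and vessels of the brain.

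H19 is a long non-coding RNA that is also the host of a microRNA, and Igf2 hosts another. These sequences are shown because the H19 transcript is the member with the widest range here. Transcription of H19 can release miR-675, and that of Igf2 can release miR-483. In the RefSeq table of the GRCr8 build, Mir675 lies within H19 at chr1:207161752-207161835 and Mir483 lies within Igf2 at chr1:207247859-207247931, both on the minus strand. In the hairpins, capitals mark the mature arms, and in the mature miRNAs they mark the seed, bases 2 to 8 from the 5′ end. Neither miRNA has a feature of its own symbol in the annotation, so neither was measured here.
miR-675 hairpin: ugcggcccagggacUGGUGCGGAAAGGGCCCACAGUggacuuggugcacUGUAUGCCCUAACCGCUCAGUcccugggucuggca
rno-miR-675-5p: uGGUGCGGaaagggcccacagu
rno-miR-675-3p: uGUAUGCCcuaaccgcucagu
miR-483 hairpin: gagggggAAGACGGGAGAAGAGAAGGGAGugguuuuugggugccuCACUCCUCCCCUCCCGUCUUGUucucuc
rno-miR-483-5p: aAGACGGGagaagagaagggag
rno-miR-483-3p: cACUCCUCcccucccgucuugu
Each of the 4 seeds occurred in only 1 of the 693 mature rat miRNAs of the table, so none of these arms shares a seed with another.

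H19 had the largest absolute difference between FGF9 and control at 10 days of all 14506 genes. Its log2 level in control cultures was 10.96 and 10.20 at 24 hours and 9.20 and 6.12 at 10 days. With FGF9 it was 10.82 and 9.42 at 24 hours and 12.91 and 12.35 at 10 days. At 10 days both FGF9 arrays lay above every control array of either time, and the lowest of all 8 values was the AA1 control. Control arrays at 10 days had a mean of 7.66 ± 2.18 (SD, n = 2), against 12.63 ± 0.40 (SD, n = 2) with FGF9.

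At 10 days H19 was 3.72 log2 units higher with FGF9 in pair 1, which is 13.2-fold, and 6.24 higher in pair 2, which is 75.4-fold. The mean difference was 4.98 with an SE of 1.01 in a fit with 1 mean per group, and of 0.55 in a fit that also took out the level of each prefix (the replicate block). Both FGF9 arrays had similar levels, so the gap between the pairs came from the controls, which differed by 3.08 units. When each array was left out in turn, the H19 difference ranged from 3.44 (without the AA1 control) to 6.52 (without the CL2 control). H19 was the only one of the 8 measured members among the 170 genes (1.17%) that were at least 1 log2 unit higher in both pairs at 10 days, and no member was among the 0.938% that were as much lower. At 24 hours 0.524% of genes were that much higher and 0.138% lower, with no member in either set. H19 was also the only member whose groups did not overlap at 10 days, a pattern that 26.2% of all genes had.

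A second feature carried the H19 symbol and had lower values, with 8.07 and 6.13 in controls at 10 days and 11.97 and 11.41 with FGF9. There the differences were 3.90 in pair 1 and 5.28 in pair 2. The features followed each other over the 8 arrays (r = 0.952), with the AA1 control lowest on both.

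At 24 hours H19 was tested, since those pairs did not choose it, and it was not higher with FGF9. The differences were -0.14 in pair 1 and -0.79 in pair 2, a mean of -0.46 ± 1.01 (SE) with an adjusted p of 1.00 in limma. With the replicate block the SE was 0.55 and the limma adjusted p 0.785. Both SEs pool the scatter of all 4 groups. The SD of H19 was 0.535 and 0.991 at 24 hours (control, FGF9) and 2.18 in the 10-day controls. Between 24 hours and 10 days, within the CL2 arrays alone, H19 differed by -1.01 in control cultures and by 3.50 in FGF9 cultures. Within this prefix the level at 10 days thus lay below that at 24 hours without FGF9 and above it with FGF9.

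**Figure D1:**
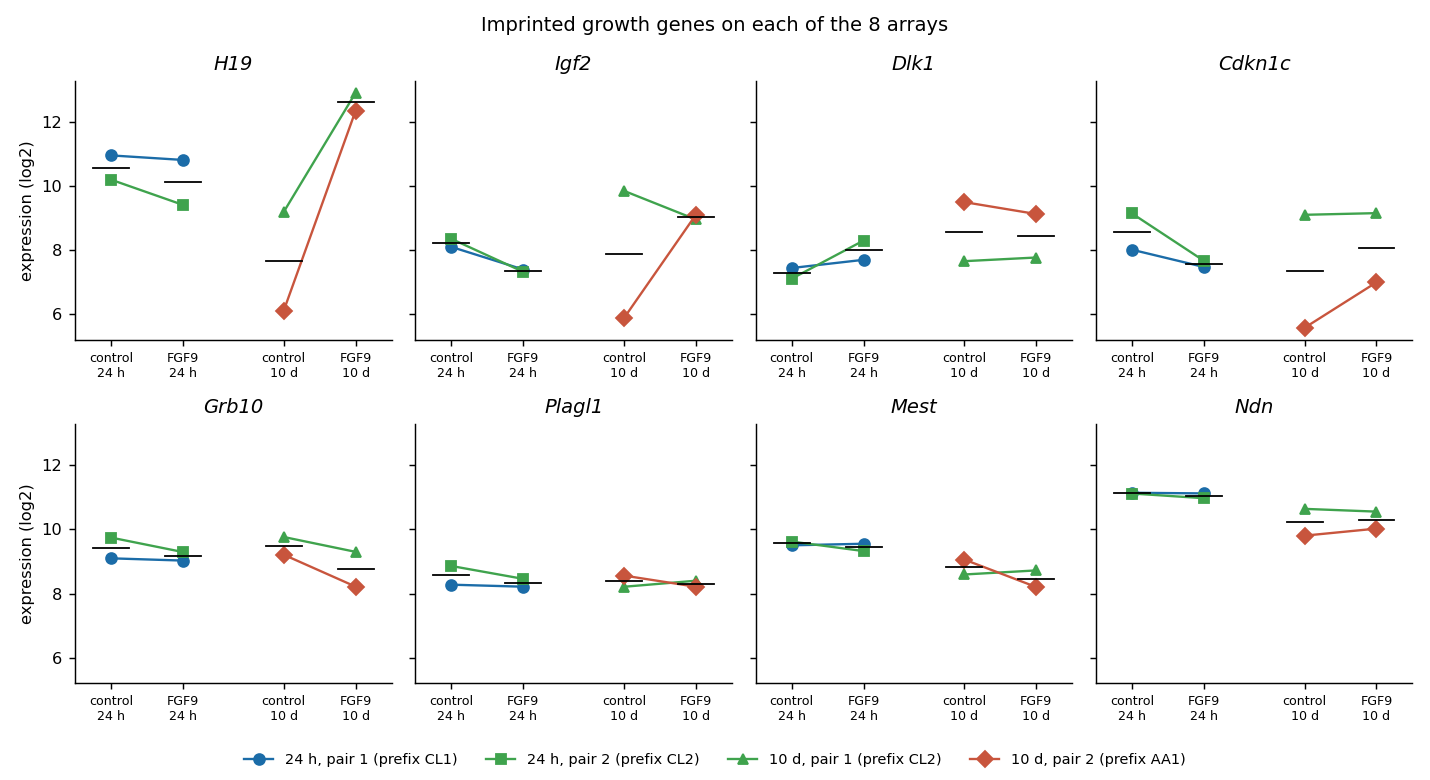
Log2 expression of the 8 measured imprinted growth genes on each array, with lines joining the control and FGF9 arrays of a same-numbered pair and black bars for the group means (n = 2). The 10-day lines of H19 run from 9.20 to 12.91 and from 6.12 to 12.35, while its 24-hour lines run from 10.96 to 10.82 and from 10.20 to 9.42.

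Igf2, the insulin-like growth factor II that drives fetal growth, did not follow H19 in both pairs. Control values were 8.11 and 8.36 at 24 hours and 9.86 and 5.89 at 10 days, and FGF9 values were 7.40 and 7.33, then 8.96 and 9.11. At 10 days the FGF9 difference was -0.89 in pair 1 and 3.22 in pair 2, so the pairs had opposite signs and their mean of 1.17 describes neither. The high difference of pair 2 rested on the AA1 control, at 5.89 the lowest Igf2 value of the 8. Over the 8 arrays Igf2 and H19 had an r of 0.65, a description that includes this shared low array.

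At 24 hours Igf2 was lower with FGF9 in both pairs, with differences of -0.70 (1.63-fold) and -1.03 (2.04-fold), and the groups did not overlap. The mean was -0.87 ± 1.14 (SE), with a limma adjusted p of 1.00 without the block and 0.736 with it. Both fits pool the scatter of all 4 groups. The SD of Igf2 was 0.178 and 0.0516 at 24 hours (control, FGF9) but 2.81 in the 10-day controls. In a fit with the block from which either 10-day pair was left out, the SE was 0.14. That fit holds 1 array in each 10-day group and takes a gene's scatter from the 24-hour pairs alone, so no call is read from it. Limma fits that contained all 8 arrays called no gene at 24 hours (0.0%) with or without the block, where 1800 and 280 genes had an unadjusted p under 0.05.

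Cdkn1c encodes p57, a maternally expressed inhibitor of cyclin-dependent kinases that stops cell division. It measured 8.02 and 9.15 in controls and 7.48 and 7.67 with FGF9 at 24 hours, so the groups did not overlap. The pair differences were -0.54 and -1.48 and the mean was -1.01 ± 1.23 (SE), with a limma adjusted p of 1.00 without the block and 0.358 with it. Here too the SE pools both times, with SDs of 0.80 and 0.137 at 24 hours and 2.49 and 1.53 at 10 days (control, FGF9). At 10 days Cdkn1c was 9.11 and 5.59 in controls and 9.16 and 7.00 with FGF9. Pair 1 differed by 0.05 and pair 2 by 1.42, and both AA1 arrays were the lowest of the 8.

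Dlk1, a paternally expressed membrane protein with EGF repeats that keeps progenitors undifferentiated, was the only member higher with FGF9 in both pairs at 24 hours. Controls were at 7.45 and 7.12 and FGF9 cultures at 7.71 and 8.31, with no overlap. The differences were 0.26 and 1.19, a mean of 0.72 ± 0.70 (SE), with a limma adjusted p of 1.00 and, with the block, of 0.349. This was the lowest blocked p of the 8 members at 24 hours and did not pass. At 10 days controls were at 7.66 and 9.50 and FGF9 cultures at 7.78 and 9.13, so that pairs differed more from each other than FGF9 from control.

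Grb10 encodes an adaptor that dampens insulin and IGF receptor signalling. At 24 hours it was 9.10 and 9.75 in controls and 9.03 and 9.29 with FGF9, and at 10 days 9.76 and 9.21 in controls and 9.30 and 8.22 with FGF9. It was lower with FGF9 in all 4 pairs, with differences of -0.07 and -0.45 at 24 hours and -0.46 and -0.996 at 10 days. The groups overlapped at both times, and at 24 hours the limma adjusted p was 0.628 with the block.

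Plagl1, a zinc finger transcription factor that restrains proliferation, varied least. Its 8 values spanned 0.65 log2 units, from 8.21 to 8.86, and its pair differences lay between -0.40 and 0.19. Mest, a paternally expressed protein of the hydrolase fold family, lay between 9.32 and 9.62 at 24 hours and between 8.20 and 9.06 at 10 days. Its 10-day pairs had opposite signs, 0.13 and -0.86. Ndn encodes necdin, a growth suppressor of postmitotic neurons, and its pair differences were the smallest of the 8 members. All 4 were between -0.15 and 0.22, at levels of 9.81 to 11.14.

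Across the 8 members at 24 hours, 6 were lower with FGF9 in both pairs and 1 was higher, with a median difference of -0.25 against 0.00 over all genes. Having 1 sign in both pairs was common: 64.6% of all genes did. None of the 8 passed the limma test at 24 hours, with blocked adjusted p-values from 0.349 (Dlk1) to 0.886 (Mest), although 2 had an unadjusted p under 0.05 with the block. Groups that did not overlap occurred for 3 members (Igf2, Dlk1 and Cdkn1c), beside 32.1% of all genes. At 10 days the median of the 8 was -0.01, and the signs of the members differed. Only H19, Cdkn1c and Grb10 kept 1 sign in both pairs, beside 63.2% of all genes. Without the block no gene passed at 10 days (0.0%), although 816 had an unadjusted p under 0.05. With it 933 did (6.43%), 453 of them higher (3.12%) and 480 lower (3.31%), and H19 was the only member among them. Since H19 was chosen from this contrast, nothing is read from these counts. With a 10-day pair left out, each 10-day group holds 1 array, so no call of a member is read from such a fit. The AA1 pair alone gave 3.22 for Igf2, 1.42 for Cdkn1c and -0.996 for Grb10, and the CL2 pair -0.89, 0.05 and -0.46. The difference between the FGF9 effects of both times passed the blocked threshold for 7 genes (0.0483%), none of them a member.

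**Figure D2:**
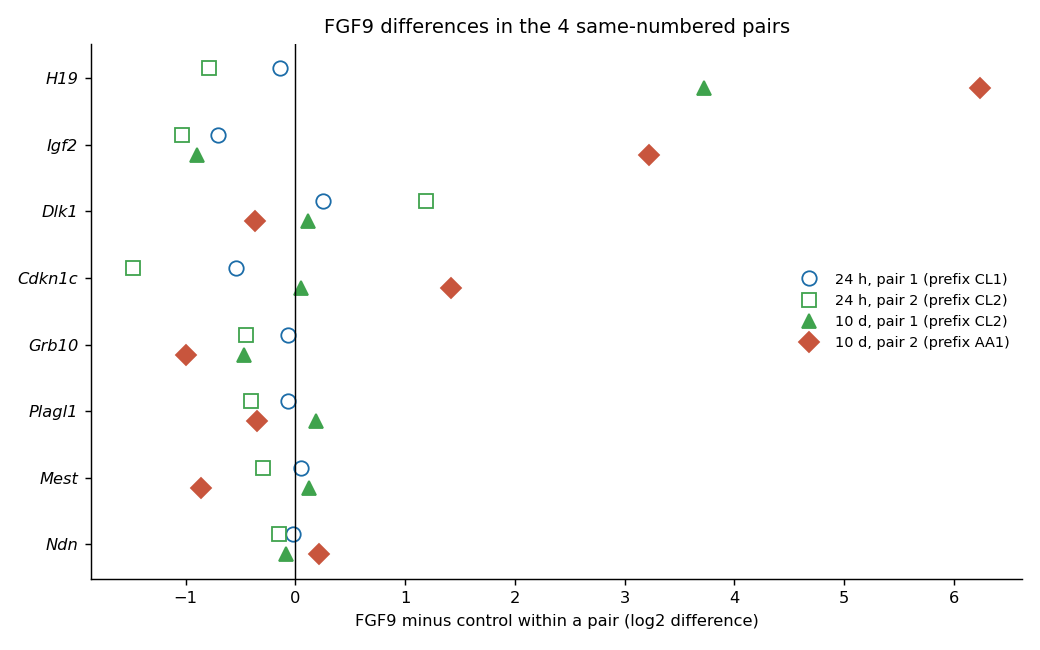
FGF9 minus control (log2) within each of the 4 same-numbered pairs for the 8 measured members, with open symbols for 24 hours and filled symbols for 10 days. H19 at 10 days lies at 3.72 and 6.24, far to the right of the other members except the AA1 pair of Igf2 at 3.22.

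Without FGF9, some members lay at other levels at 10 days than at 24 hours. Mest was 9.50 and 9.62 in controls at 24 hours and 8.59 and 9.06 at 10 days, a difference of -0.74 ± 0.26 (SE). Ndn went from 11.14 and 11.12 to 10.64 and 9.81, a difference of -0.91 ± 0.32 (SE). H19, Mest and Ndn were lower in both 10-day controls than in both 24-hour controls, a pattern that 13.6% of all genes showed, and Dlk1 was higher in both, as were 13.8%. None of the tested members passed: limma adjusted p-values were 0.983 or more without the block, and 0.294 (Ndn) or more with it, where 1 gene of all (0.00689%) passed. Within the CL2 arrays alone Mest differed by -1.03, Ndn by -0.48, Dlk1 by 0.55 and Igf2 by 1.50. For Igf2 the mean over both replicates was -0.36, of the opposite sign, because the AA1 control was low.

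The AA1 control array had H19, Igf2 and Cdkn1c all below its median of 6.73, and it was the only array on which any member was below the array median. Markers of fibroblasts and meningeal cells, types that express these imprinted genes strongly in development, were in part also low on the AA1 arrays. Fn1, fibronectin, the highest of the list, lay between 10.98 and 12.42 on the other 6 arrays and at 9.22 and 10.15 on the AA1 control and FGF9 arrays. Col1a2, a fibrillar collagen chain, lay between 11.19 and 12.25 on the other 6 arrays and at 7.22 and 7.15 on AA1. Col1a1 lay between 10.96 and 11.84 on the 6 and at 7.38 and 7.27 on AA1, and Col3a1, chosen after its values were seen, at 10.05 to 11.29 and at 5.36 and 5.69. Not all markers did this: Thy1, a surface protein that neurons share, was at 11.53 and 11.22 on AA1 and at 9.19 to 11.23 elsewhere. Fbln2 and Prrx1, named after their values were seen, were at 9.16 and 8.63 and at 10.79 and 10.41 on AA1, against 6.29 to 7.29 and 9.64 to 10.37 elsewhere. Of the 21 measured genes of this list, 12 and 10 were below the array median on the AA1 control and FGF9 arrays, against 3 to 6 on the others. The log2 of the list's summed level was 13.04 and 12.89 on AA1 and 13.72 to 14.85 elsewhere. Low values on AA1 were not confined to this list. For 11 measured housekeeping genes the summed level was 15.81 and 15.91 on AA1 and 15.94 to 16.26 elsewhere. Of these, Ppia was at 11.64 and 11.56 on AA1 and at 12.81 to 13.14 elsewhere. Tbp was higher on AA1, at 10.32 and 10.43 against 8.99 to 9.37. Both were named after their values were seen.

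On the AA1 arrays H19 was at 6.12 in the control and 12.35 with FGF9, and on the CL2 arrays of 10 days at 9.20 and 12.91. At 10 days none of the 21 fibroblast and meningeal markers passed the limma test with the block or without it, 8 and 2 of them had an unadjusted p under 0.05, and their median difference was -0.21. Fewer cells of a type and less RNA per cell cannot be told apart in such mixed cultures.

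Markers of pericytes and vascular smooth muscle, the contractile cells of vessel walls, moved with H19 at 10 days. Of the 10 genes, 9 were higher with FGF9 in both pairs, as were 4809 of all 14506 genes, with a median difference of 0.80. With the block 5 rose past the limma threshold, against 3.12% of all genes. Without the block none passed in limma (5 had an unadjusted p under 0.05), and with the prefix as a random effect 3 did, Cspg4, Kcnj8 and Rgs5, the last 2 named after their values were seen. Tagln, an actin-binding protein of smooth muscle, was 8.68 and 8.57 in controls and 9.61 and 10.01 with FGF9 (difference 1.18). Cspg4, which also marks oligodendrocyte precursors, was 6.24 and 7.42 in controls and 7.89 and 9.18 with FGF9 (difference 1.70). Acta2, smooth muscle actin, the list's highest gene, differed by 0.35 and Mcam by 0.25, and neither passed. The summed level of the list was 11.35 and 11.09 in controls and 11.97 and 11.95 with FGF9 at 10 days, but also 11.86 and 11.40 in controls at 24 hours. Among 17 measured skeletal muscle and cartilage markers, another known place of H19 expression, 13 to 15 were below the array median on each array. None passed in limma with the block at 10 days, and 1 had an unadjusted p under 0.05. The part of these cell types in the H19 values was not tested.

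**Figure D3:**
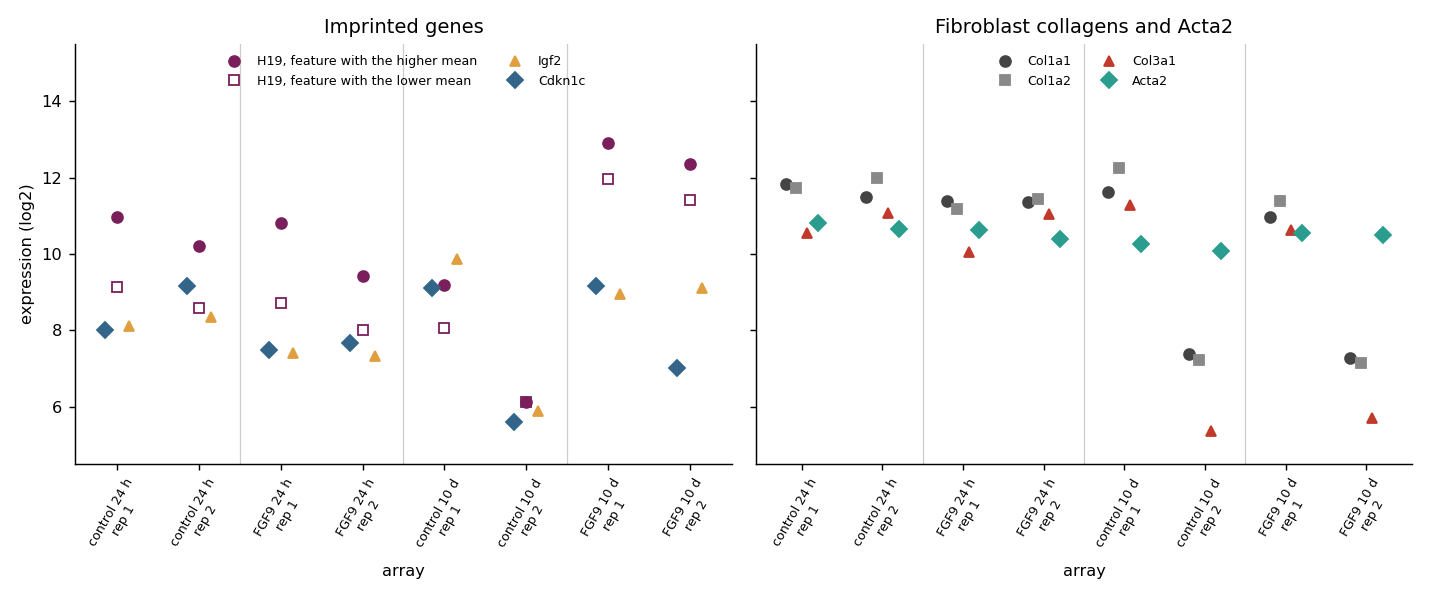
Log2 expression on each of the 8 arrays of both H19 features, Igf2 and Cdkn1c (left) and of 3 fibroblast collagens and Acta2 (right). On the AA1 arrays (10 d, rep 2) the collagens sit between 5.36 and 7.38 in both cultures, while H19 is at 6.12 in the control and 12.35 with FGF9.

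Genes next to H19 in the RefSeq order did not share its 10-day values. Within 5 genes on each side, those measured were Lsp1, Tnnt3, Mrpl23, Igf2 and Ins2. Lsp1, an actin-binding protein of leukocytes, differed by 0.45 and 0.96 in the pairs at 10 days, with a limma adjusted p of 0.153 with the block. Mrpl23, a mitochondrial ribosomal protein gene, differed by 0.28 and 0.41 (adjusted p = 0.193). Tnnt3, a skeletal muscle troponin, differed by -0.01 and 0.62, and Ins2, an insulin gene, by -0.07 and -0.05. Cdkn1c belongs to the other imprinted domain of the same region. There Phlda2, a placental growth inhibitor, lay between 5.10 and 5.43 on all arrays, and Tssc4 differed by 0.07 and 0.60 at 10 days. Slc22a18, a transporter, differed by -0.61 and -0.54 at 24 hours and by -0.75 and 0.30 at 10 days.

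Meg3, the maternally expressed non-coding RNA next to Dlk1, fell at 10 days in the fit with the block. It was 10.42 and 9.57 in controls and 8.28 and 8.13 with FGF9 at 10 days, pair differences of -2.13 and -1.44. The mean difference was -1.79 ± 0.64 (SE), with a limma adjusted p of 0.813 without the block and 0.017 with it (SE 0.19). At 24 hours the differences were -0.47 and -0.43 and it did not pass. Both FGF9 arrays at 10 days were below the other 6, and the groups of that time did not overlap, whereas Dlk1 differed by only 0.11 and -0.37.

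The starts of Dlk1 and Meg3 are shown because these neighbours, read from opposite parental alleles, differed in how they stood to FGF9. Each 300-base window spans a RefSeq start in GRCr8, on the plus strand, at chr6:134192347-134192646 for Dlk1 and at chr6:134273806-134274105 for Meg3. Capitals mark the only match to the motifs searched on both strands, which were GGGGCCCC (the site of Plagl1), CCGGAA (ETS factors, on which FGF signalling acts) and TGANTCA (AP-1).
Dlk1 promoter: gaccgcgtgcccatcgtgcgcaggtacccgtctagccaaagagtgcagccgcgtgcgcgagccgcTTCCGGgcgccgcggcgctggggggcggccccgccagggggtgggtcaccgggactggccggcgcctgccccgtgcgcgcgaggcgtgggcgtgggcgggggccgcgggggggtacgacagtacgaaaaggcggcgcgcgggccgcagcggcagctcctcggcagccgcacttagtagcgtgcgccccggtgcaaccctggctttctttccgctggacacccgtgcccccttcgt
Meg3 promoter: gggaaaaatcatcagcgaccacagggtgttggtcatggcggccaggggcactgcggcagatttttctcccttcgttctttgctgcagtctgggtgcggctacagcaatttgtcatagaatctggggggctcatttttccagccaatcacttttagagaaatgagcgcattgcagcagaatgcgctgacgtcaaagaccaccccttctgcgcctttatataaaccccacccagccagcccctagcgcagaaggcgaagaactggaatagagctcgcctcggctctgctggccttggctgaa
The Dlk1 window held 1 ETS match, 45 CpG dinucleotides and 76.0% G and C, and the Meg3 window no match, 13 CpG and 54.3%. Over 33469 rat promoters the median was 7 CpG and 51.7%, and 15% (5004) held the ETS motif, 7.33% the AP-1 motif and 0.858% the Plagl1 motif. Among the members with a window, the Plagl1 motif occurred only in that of Peg3. A match of letters is a description and not a bound site.

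Of 52 other genes imprinted in mouse or human, 37 were measured, and more of them were lower than higher with FGF9. In both pairs 18 were lower and 7 higher at 10 days, against 4352 and 4809 of all 14506 genes. At 24 hours 20 were lower and 10 higher, against 4771 and 4606 of all genes. The median difference was -0.07 at 10 days and -0.17 at 24 hours, against 0.02 and 0.00 over all genes. No gene of the list passed in limma without the block or with the prefix as a random effect (1.04% of all genes passed the latter), where 2 and 9 had an unadjusted p under 0.05 at 10 days. With the fixed block, 6 fell and 1 rose at 10 days in limma, against 3.31% and 3.12% of all genes. At 24 hours none passed in this fit and 5 had an unadjusted p under 0.05.

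Several of the genes that fell are known mainly from neurons. Besides Meg3 they were Kcnk9, a background potassium channel, with -1.61 and -1.07 in the pairs (adjusted p = 0.020 in limma with the block), and Nnat. Nnat encodes neuronatin, a small membrane protein of developing neurons, and was 12.66 and 11.88 in controls and 11.74 and 10.82 with FGF9 at 10 days (difference -0.99, adjusted p = 0.022 in limma with the block). Both FGF9 arrays lay below both controls of that time, while its control values at 24 hours, 10.36 and 12.72, differed by more than this fall. The remaining 3 were chosen after their values were seen: Usp29, a neighbour of Peg3, with -0.86 and -0.89, Snurf with -0.71 and -0.70, and Begain, a neighbour of Dlk1, with -0.64 and -0.94. Snurf lies on a shared transcript with Snrpn, so its feature may not separate them. Inpp5f, a phosphoinositide phosphatase, was the gene that rose, from 9.51 and 8.74 to 10.53 and 9.91 (adjusted p = 0.020 in limma with the block).

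Meg3, Kcnk9 and Inpp5f passed the blocked limma fit with any of the 4 pairs left out. Without the AA1 pair, where 3.92% of all genes passed, only these 3 of the 7 did. Without the CL2 pair of 10 days (10.4% of all genes) all but Snurf passed, and without a 24-hour pair (3.23%) these 3 and Nnat. Neuron markers moved with the genes that fell: all 14 measured were lower with FGF9 in both pairs at 10 days, with a median of -0.88. Of all 14506 genes, 4352 were lower in both. With the block 10 markers passed, against 3.31% of all genes that passed as lower. Without it 0 did, and 0 with the prefix as a random effect (1 and 7 had an unadjusted p under 0.05 in limma). All 14 were also lower in both pairs at 24 hours, with a median of -0.22, as were 4771 of all genes. At 10 days Snap25, a synaptic protein, was 12.93 and 13.78 in controls and 12.21 and 13.03 with FGF9. No neuron marker was below the array median on any array, and their part in the falls was not tested. Ndn, although known from neurons, differed by only -0.09 and 0.22.

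The other imprinted genes differed by less or in only 1 pair. Igf2r, the receptor that clears Igf2, was 0.66 and 0.54 higher with FGF9 at 10 days (adjusted p = 0.054 in limma with the block). Gnas, the stimulatory G protein subunit, differed by -0.19 and -0.13, and Sgce, a sarcoglycan, by 0.09 and 0.35. Ano1, a chloride channel, was higher by 0.35 to 0.45 in both 10-day pairs and by 0.36 in both 24-hour pairs, and did not pass. Slc22a2, an organic cation transporter, was at 5.60 on both AA1 arrays and at 7.59 to 10.05 on the rest, and its 10-day difference of -2.02 was in the CL2 pair alone. At 24 hours Tfpi2, a protease inhibitor, was higher by 0.43 and 0.92 and Calcr, the calcitonin receptor, by 0.69 and 0.15, and neither passed.

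**Figure D4:**
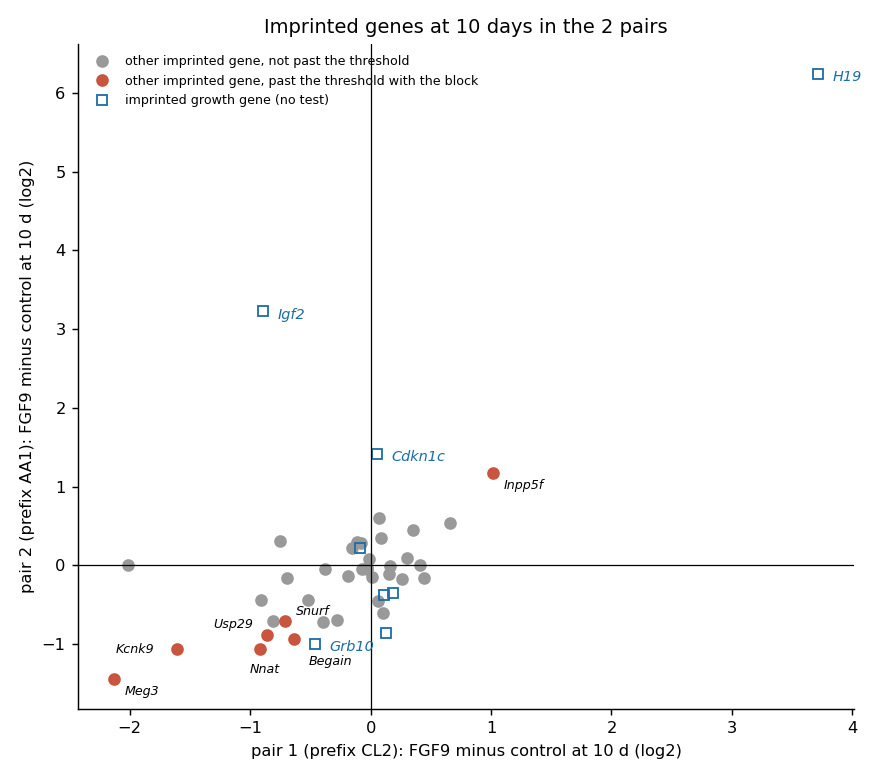
FGF9 minus control at 10 days (log2) in pair 1 (horizontal axis) and pair 2 (vertical axis) for 37 other imprinted genes and the 8 members, with genes past the blocked threshold in red. Meg3, at -2.13 and -1.44, lies at the lower left and H19, at 3.72 and 6.24, at the upper right.

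Around Igf2, it was mostly binding proteins of insulin-like growth factors that passed the test at 10 days. Of 28 genes of IGF signalling and its regulators, 24 were measured, with a median difference of 0.07 at 10 days. None passed in limma without the block, where 7 had an unadjusted p under 0.05, and with it 3 rose and 1 fell, against 3.12% and 3.31% of all genes. Igfbp3, which carries IGFs and limits their action, was 7.50 and 6.92 in controls and 10.50 and 9.24 with FGF9, a difference of 2.66 ± 1.03 (SE; 0.19 with the block, adjusted p = 0.011 in limma). It was also 1.02 and 0.83 higher at 24 hours, where it did not pass. Igfbp4 was 7.23 and 6.57 in controls and 8.29 on both FGF9 arrays (difference 1.39, adjusted p = 0.022 in limma with the block). It was the only gene of this list that also passed with the prefix as a random effect.

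Igfbp5 fell from 11.09 and 12.21 to 10.18 and 10.72 (difference -1.20, adjusted p = 0.034 in limma with the block). The difference was -0.91 in the CL2 pair and -1.50 in the AA1 pair. This call did not hold without the block or with the prefix as a random effect. Igf1r, the receptor through which both IGFs act, rose from 8.63 and 8.73 to 9.61 and 9.55 (difference 0.90, adjusted p = 0.027 in limma with the block). The 10-day pairs differed by 0.99 and 0.81, and this call too did not hold without the block or with the random effect. Igfbp2 was 10.44 and 6.92 in controls and 11.82 and 11.31 with FGF9, so that the AA1 control was its lowest array, as for H19. Its differences were 1.38 and 4.39 in the pairs, and their mean of 2.89 had an adjusted p of 0.055 in limma with the block. Igf1, the other ligand, differed by -1.41 and -0.32, and Igf2bp1, an RNA-binding protein that binds Igf2 and H19 transcripts, by 0.26 and -0.20.

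Genes whose pattern over the 8 arrays was most like that of H19 were sought among 1847 genes with a range of at least 2 log2 units. They were Tmem176a (Pearson r = 0.943), Gpnmb (0.935), Htra1 (0.932), Igfbp2 (0.929) and Crym (0.929). All 5 had their lowest value on the AA1 control array, which these correlations share. In the 10-day pairs, which the likeness already used, Htra1, a secreted serine protease, was higher with FGF9 by 1.45 and 1.47, and Crym, a thyroid hormone-binding protein, by 1.74 and 2.24. Gpnmb, a membrane glycoprotein of macrophages and glia, differed by 0.77 and 2.62, and Tmem176a by 0.51 and 2.05. By rank correlation 2 of these 5 were again among the 5 most like H19.

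Igf2 was most like Hspb1 (r = 0.920), Ephx1 (0.899), Id1 (0.897), Gsn (0.881) and Plin3 (0.870). Hspb1, a small heat shock protein, had FGF9 differences of -1.12 and -1.42 at 24 hours and of 0.46 and 2.63 at 10 days. Each of these 5 was lowest on the AA1 control, where Hspb1 was at 10.07 and Igf2 at 5.89. Among the members themselves, Igf2 and Cdkn1c had an r of 0.75 and Igf2 and Mest of -0.52 over the same 8 arrays.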

How the data were processed

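Total RNA of the 8 cultures was hybridised to Affymetrix rat gene arrays. The deposited table holds log2 expression values per feature, made with Partek 6.5 and GCRMA per the submitters' processing notes. The log2 scale was read from the values. No build was given in the sources used here. Of 29214 features, 15310 had exactly 1 symbol, 323 several and 13581 none. The feature with the highest mean stood for each of 14506 genes. No filter on low values was applied, and arrays give no counts, so the number of arrays limits the precision.

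Groups were compared with limma 3.58.1 in R 4.3.3, with 1 mean per group over all 8 arrays (4 residual degrees of freedom) and Benjamini-Hochberg adjustment over all genes at 0.05. The alternative with the prefix as a fixed block left 2, and fewer when a pair was also left out. Each fit pools the scatter of a gene over all its groups, so a 24-hour SE also holds the scatter at 10 days. Same-numbered control and FGF9 arrays share a prefix and deviated together from their group means (r = 0.757 at 24 hours and 0.819 at 10 days), so blocked values stand beside the others where they change a call. The comparisons share control arrays. The fit was also run on data simulated from the blocked model itself, which cannot show whether the block suits these arrays.

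The members and the lists were chosen with earlier results of these data known. Named were all members, fixed genes of the imprinted and IGF lists where measured, the genes of each list with the largest changes, the 5 genes most like H19 and Igf2 by Pearson r, neighbours of H19 and up to 4 highest markers of a list. Exceptions are stated. Alternatives were the block, fixed or random, each array or pair left out, quantile or median scaling, a filter on low features, the mean of features and fits of the arrays concerned alone. Sequences came from RefSeq tables (GRCr8). Windows were found for Igf2, Dlk1, Peg3, Mest, Grb10, Plagl1, Ndn and Meg3.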

Additional observations from a re-analysis of the deposited data

Results flagged for a closer look

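Several genes named above had FGF9 differences of 1 sign in both 24-hour pairs and of the other sign in both 10-day pairs. Having 1 sign in both pairs was common, at 64.6% of all genes at 24 hours and 63.2% at 10 days. How many of all genes switched sign was not counted. Some differences were small, such as 0.05 for Cdkn1c in pair 1 and -0.07 and -0.05 for Ins2 at 10 days. The difference between the times, 10 days minus 24 hours, was 5.44 log2 units for H19 and 1.74 for Cdkn1c. Among the other imprinted genes it was 0.63 for Igf2r, 0.31 for Sgce, 0.59 for Tssc4, -1.10 for Tfpi2 and -0.90 for Calcr, and for Ins2, the neighbour of Igf2, it was -0.29. Among the genes most like H19 or Igf2 it was 1.58 for Tmem176a, 2.19 for Gpnmb, 2.60 for Crym, 2.82 for Hspb1, 1.11 for Id1, 0.99 for Gsn and 1.36 for Plin3. These 15 values are descriptions without a test, since the genes were picked for opposite signs at the 2 times, and H19 and the 7 genes like H19 or Igf2 also by their 10-day values. Groups of 2 arrays allowed no search for outlying samples.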

How the results depend on the processing

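The count of genes past the threshold at 10 days depended on the replicate block: 0 without it, 933 with it, 151 with the prefix as a random effect, 469 when either 24-hour pair was left out of the blocked fit, 1506 without the CL2 pair of 10 days and 569 without the AA1 pair. At 24 hours it was 237 in the blocked fit without either 10-day pair and 0 otherwise. Between the times in controls it was 1 with the block. For the difference of the FGF9 effects it was 7 with the block, 4 with the random effect, and in the blocked fit 1, 322 and 9 without the CL1, the CL2 10-day and the AA1 pair. With any single array left out, all 4 counts stayed at 0, with 816 genes at an unadjusted p under 0.05 at 10 days over all arrays. Quantile or median scaling, the low filter, the mean of features and the smaller fits also called no gene. A blocked fit with a pair left out holds 1 array in some groups, so its count is no check of the others.

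With all 8 arrays the block changed no call of a member at 24 hours or over time in controls. The 10-day call of H19 depended on the block and is not read, since H19 was chosen from that contrast. Without the CL2 pair of 10 days, the AA1 pair alone gave the 10-day differences: 3.22 for Igf2, 1.42 for Cdkn1c and -0.996 for Grb10. In the CL2 pair they were -0.89, 0.05 and -0.46. The time difference of Igf2 in controls turned to 0.55 with the block and 0.23 with the random effect, and Mest at 24 hours to 0.049 without the CL2 pair. Leaving out arrays turned signs for H19 (-1.16 to 0.24), Grb10 (-0.584 to 0.063) and Plagl1 (-0.524 to 0.059) at 24 hours. In controls over time it did so for Igf2 (-2.35 to 1.62), Cdkn1c (-3.00 to 0.52), Grb10 (-0.26 to 0.39) and Plagl1 (-0.47 to 0.11). At 10 days it did so for Igf2 (-0.82 to 3.15), Dlk1 (-1.05 to 0.79), Cdkn1c (-1.03 to 2.50), Plagl1 (-0.25 to 0.095) and Ndn (-0.35 to 0.48). The cause was not tested. H19 at 10 days lay between 3.44 and 6.52 in every setting run. Leaving out arrays could not turn its sign, since both FGF9 arrays of 10 days lay above both controls. By Spearman's rho 2 of the 5 genes most like H19 were the same. The pair-wise omissions and the second H19 feature were added after seeing the data.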
